A study of Mus musculus with 2 samples.

Results

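Glutathione transferases, glutathione peroxidases, peroxiredoxins and superoxide dismutases were followed here as 10 genes across the cell classes of the mouse retina. The members, *Gstp1*, *Gstm1*, *Gsto1*, *Gpx3*, *Gpx4*, *Prdx1*, *Prdx2*, *Prdx6*, *Sod1* and *Sod2*, were taken from a fixed list out of 32285 annotated genes, and the list was chosen by the measured ratios of light damage to control, in which *Gstp1* was among the strongest falls in rods. The *Gstp1* values in rods are therefore given as a description.

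Superoxide dismutases turn superoxide into hydrogen peroxide, *Sod1* mainly in the cytosol and *Sod2* in the mitochondrial matrix. Peroxiredoxins and glutathione peroxidases then reduce peroxides, using thioredoxin or glutathione, and glutathione transferases join glutathione to reactive lipid aldehydes and other electrophiles. Photoreceptors carry many mitochondria and membranes rich in polyunsaturated fatty acids, and the retinal pigment epithelium (RPE) takes up their shed outer segment discs, so this chemistry is active in the outer retina.

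Single-cell libraries (10x Genomics, 3' chemistry v3.1) were prepared from retinae of mice aged 6 to 9 weeks, with 1 control and 1 light damage library. Control mice stayed in the dark for 18 h and received no bright light, whereas light damage mice were given 30 min of white light at 5000 lux after 18 h of darkness and recovered for 6 h in dim light. Each library holds the pooled retinae of 3 to 5 animals. All mice of both groups carried floxed *Tgfbr2* on both alleles without a Cre driver being named, a Balb-C/CD1 background and the leucine variant of RPE65, which makes the retina more sensitive to light, and the labels call them WT. With 1 library per group there is no replicate, no p-value is given, and all intervals are at 95% and cover counting error only. Treatment, pool and sex cannot be told apart, since kept droplets held 4748 UMIs (unique molecular identifiers, counted transcripts) of the female-specific *Xist* in control droplets but only 3 after light damage.

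The deposited counts summed to 30605284 UMIs in 542576 barcodes (control) and 54413601 UMIs in 944146 barcodes (light damage), and 3669 and 5593 droplets were kept, of which 7 barcodes occurred in both libraries. Levels are spliced and ambiguous UMIs of a gene per 1000000 such UMIs of its class in 1 library (CPM). Rods were divided by the unspliced share of their UMIs into cytoplasm-rich (under 20%; 2400 control and 1904 light damage droplets), intermediate (173 and 62) and nucleus-rich (over 30%; 718 and 3128) droplets. There were 125 and 79 cones, 153 and 258 RPE droplets, and 44 and 30 Müller glia. The labels were checked against the 10 genes that lead each class by fold: 8 were cone markers in cones, 4 RPE markers in RPE, 3 Müller markers and 1 endothelial gene in Müller glia, and 2 rod markers in cytoplasm-rich rods. No rod marker was among the 10 leading genes of nucleus-rich rods, although rod markers made up 4.75% and 3.52% of their UMIs. Median spliced and ambiguous UMIs per droplet were 2146 in control and 9410 in light damage cones, 2562 and 6251.5 in RPE, 1352 and 10809 in Müller glia, and 1371 and 2659.5 in nucleus-rich rods, while cytoplasm-rich rods were closer, at 2576 and 2952.5.

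*Gstp1*, the pi-class glutathione transferase, was lower after light damage in every class with enough UMIs. In cytoplasm-rich rods its level was 279 CPM (267 to 291; 2188 UMIs) in the control and 63.8 CPM (57.9 to 70.3; 420 UMIs) after light damage, so the 2 intervals lie far apart. On the log2 scale, light damage over control gave -2.13 (-2.28 to -1.98), a 4.37-fold lower level, and only 3 of 7945 genes with at least 100 UMIs had a lower ratio there. In nucleus-rich rods 75.4 CPM (62.2 to 90.6) stood against 16.0 CPM (13.7 to 18.5), with a log2 ratio of -2.24 (-2.59 to -1.89). The intermediate rods lay between the other rods in level, at 152 and 37.8 CPM, and had the same direction, with a log2 ratio of -2.01 (-2.72 to -1.36).

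Cones held *Gstp1* at 153 CPM (121 to 191; 77 UMIs) in the control and 25.1 CPM (15.6 to 38.4; 21 UMIs) after light damage, a log2 ratio of -2.60 (-3.38 to -1.89). In RPE the level was 68.8 CPM (50.5 to 91.4; 47 UMIs) against 22.2 CPM (16.4 to 29.3; 49 UMIs), and the log2 ratio was -1.63 (-2.24 to -1.02). Müller glia had 9 UMIs in the control and 2 after light damage, too few for the minimum of 50 UMIs used here for a ratio. Control levels thus ran from cytoplasm-rich rods down to cones and intermediate rods, whose intervals overlap, and then to nucleus-rich rods and RPE, whose intervals also overlap. The control Müller interval, 36.1 to 150 CPM on 9 UMIs, overlaps those of all these groups except cytoplasm-rich rods.

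**Figure D1:**
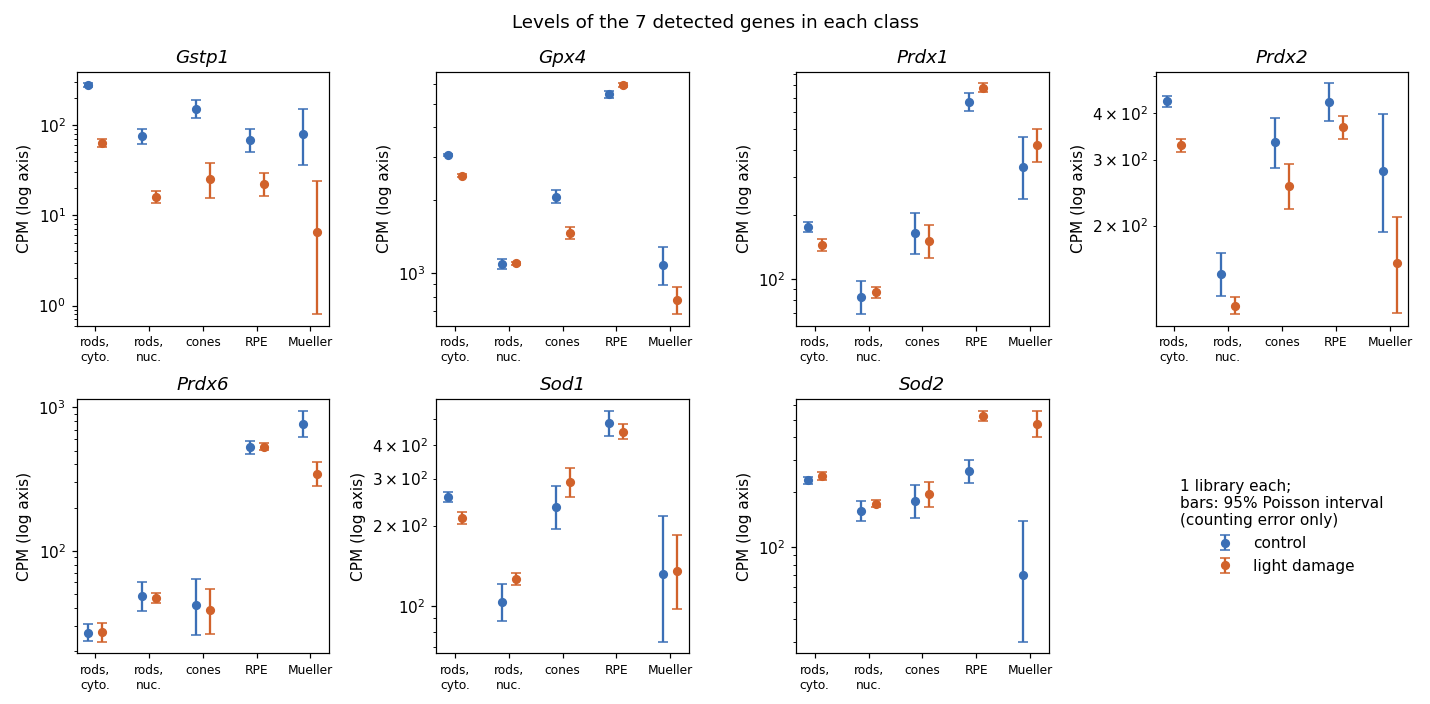
Level of the 7 detected members in CPM (log axis) in each class for the control (blue) and the light damage library (orange), 1 library each, with 95% Poisson intervals of the counts. *Gstp1* is lower after light damage in all classes drawn, *Sod2* is higher in RPE and Müller glia, and *Prdx6* stands highest in RPE and Müller glia.

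RNA that is free in the suspension carries *Gstp1* too. In barcodes under 50 UMIs it made up 260 CPM (232 to 289) in the control and 52.1 CPM (43.6 to 61.7) after light damage, a log2 ratio of -2.32 (-2.62 to -2.02). In cytoplasm-rich rods, RPE markers put free RNA at no more than 1.19% and 0.928% of the UMIs, which would give 3.09 and 0.483 CPM of *Gstp1*, far below the levels measured. In RPE, rod markers put it at no more than 8.12% and 3.84%, or 21.1 of the 68.8 CPM in the control and 2.0 of the 22.2 CPM after light damage. With that amount taken out, the log2 ratio in RPE was -1.30, and in the 98 control and 237 light damage RPE droplets under 1% rod markers it was -1.27. In control Müller glia free RNA could account for 52.9 of the 78.9 CPM.

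Cones could not be separated from rod material. All 10 rod markers were detected in cones of both libraries, and their summed share was 7.79% of control cone UMIs, beside 8.68% in free RNA of that library, and 2.76% of light damage cone UMIs, beside 6.46%. If all of it were free RNA, that would be 89.7% and 42.7% of the cone UMIs and would bring 233 and 22.3 CPM of *Gstp1*, against the 153 and 25.1 CPM measured. RPE markers, however, stood at only 1.1% of their free RNA level in control cones, so the 2 marker lists give different limits. The part of rod RNA in the cone values was not tested further, and only 4 control cones had under 5% rod markers.

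*Gstp1* was lower in each division of the rods that was tried, which describes the same droplets again and is no independent support. Over 9 bins of the unspliced share, *Gstp1* was lower after light damage in 9 of 9, with log2 ratios from -2.72 to -2.01. The control level went from 286 CPM in rods with under 5% unspliced UMIs to 28.3 CPM in those above 70%, and the light damage level from 70.4 to 4.31 CPM (2 UMIs). With rods divided at the quartiles of UMIs per droplet, the log2 ratio ran from -2.47 to -2.06 in cytoplasm-rich and from -3.50 to -2.16 in nucleus-rich rods. After each droplet was thinned to 1000 UMIs, 23.8% of control cytoplasm-rich rods (22.1 to 25.6%; 51.3% before thinning) and 6.14% of light damage rods (5.11 to 7.32%; 17.6% before thinning) held a *Gstp1* UMI. The gene was therefore detected in fewer rods at equal depth. Droplets of another class, control RPE, which were thinned in the same way, held it in 5.23% (2.28 to 10.0%), and control Müller glia in 1 of 29 (3.45%; 0.0873 to 17.8%). Free RNA at the mean of the rod marker estimates of single droplets would give 4.05% and 7.02%, inside both intervals. That mean weights droplets equally and is not the limit from class sums given above. Whether these shares stand above free RNA at the class limit was not tested.

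**Figure D2:**
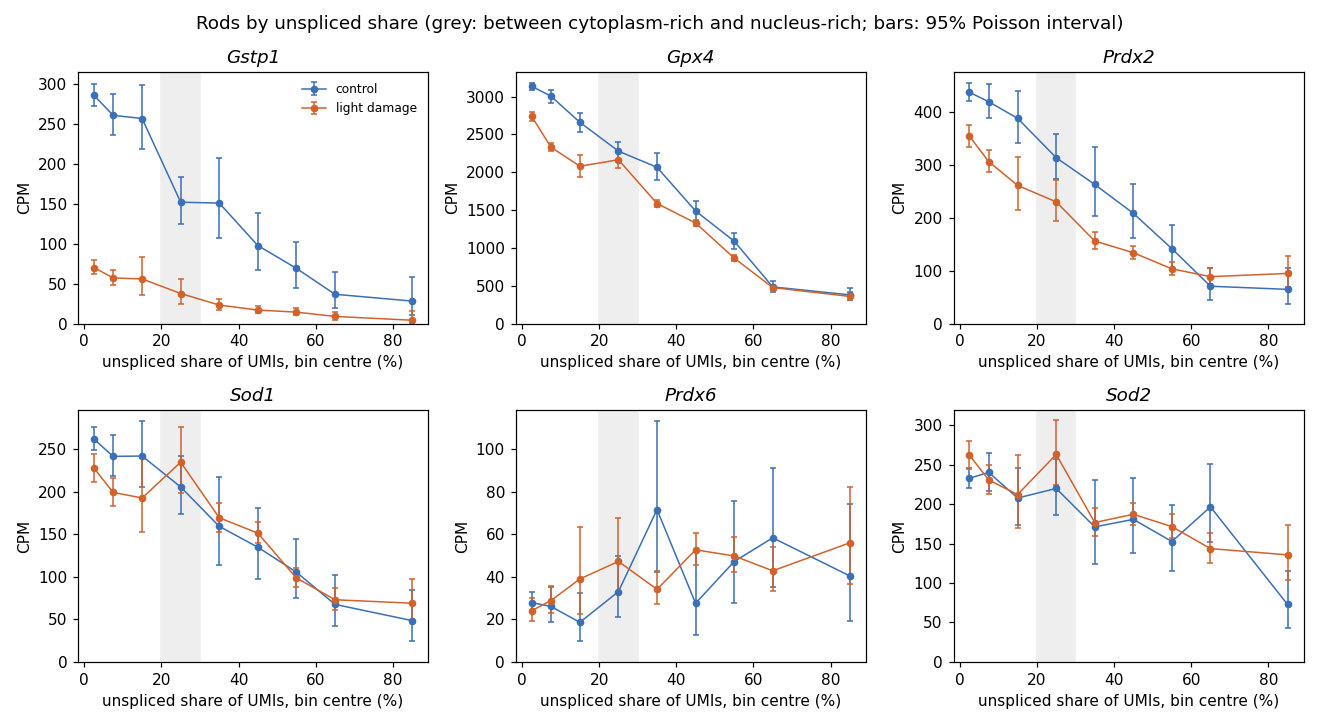
Level in CPM of 6 members in rods of the control (blue) and light damage library (orange), binned by the unspliced share of each droplet's UMIs (bin centre in %), with 95% Poisson intervals. The 2 *Gstp1* lines stay apart in all 9 bins, with overlapping intervals in the last, *Gpx4*, *Prdx2* and *Sod1* decline with the unspliced share in both libraries, and *Sod2* and *Prdx6* differ little between the libraries in most bins.

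Nearly all *Gstp1* UMIs were spliced: 2167 spliced, 21 ambiguous and 1 unspliced UMI in control cytoplasm-rich rods, and 410, 10 and 0 in light damage rods. Light damage nucleus-rich rods held 6 unspliced *Gstp1* UMIs and control ones 1, so unspliced RNA was too sparse for a comparison. *Gstp1* lies on chr19:4035407-4037985, minus strand, GRCm38, and 42.2% of the 31-base words in the last 500 bases of its transcripts also occur in its near-copies *Gstp2* and *Gstp3*. Reads of the 3 genes could therefore be split. However, *Gstp2* and *Gstp3* together had 3 UMIs in the named classes, all in light damage nucleus-rich rods, and UMIs that match several genes equally are discarded by this counting. What the discarded UMIs would add to *Gstp1* was not tested.

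Of 3318 genes with at least 50 UMIs in each of cytoplasm-rich, intermediate and nucleus-rich rods, cones and RPE, 10 were at least 1.5-fold lower after light damage in all 5 and 45 were higher in all 5. Only *Gstp1* and *Rpl9*, a protein of the large ribosomal subunit, were at least 2-fold lower in all 5. The 10 also included the rod markers *Nr2e3* and *Pde6g*, at log2 ratios of -1.86 and -2.45 in RPE and -2.57 and -1.56 in cones. Rod markers made up 0.705% of control and 0.248% of light damage RPE UMIs. The part of rod RNA in the falls in RPE and cones was not tested. The 5 groups share the same 2 libraries, and *Gstp1* was chosen by its fall in rods. Across the 10 class and library groups, the genes of 7277 whose log2(CPM + 1) followed *Gstp1* most closely included *Rpl9* (r = 0.97), *Gm10260* (0.96), *Rdm1* (0.92) and *Hmgn2* (0.91). These correlations describe 10 groups that share 2 libraries and their free RNA. *Rpl9* was at 636 CPM in control and 160 CPM in light damage cytoplasm-rich rods.

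The upstream sequences of *Gstp1* and *Prdx1* are printed because *Gstp1* was the member past 1.5-fold in rods, cones and RPE alike and *Prdx1*, which differed by less than 1.5-fold in all 5 classes, holds the same element. They are the 250 bases before the RefSeq start, GRCm38.p6, 5′ to 3′ on the gene's strand, at chr19:4037913-4038162 (minus strand) for *Gstp1* and chr4:116685349-116685598 (plus strand) for *Prdx1*. The last 73 and 55 bases lie inside the longer GENCODE gene. Capitals mark matches on either strand to the AP-1 element TGANTCA and to the core of the antioxidant response element, TGACNNNGC.
Gstp1: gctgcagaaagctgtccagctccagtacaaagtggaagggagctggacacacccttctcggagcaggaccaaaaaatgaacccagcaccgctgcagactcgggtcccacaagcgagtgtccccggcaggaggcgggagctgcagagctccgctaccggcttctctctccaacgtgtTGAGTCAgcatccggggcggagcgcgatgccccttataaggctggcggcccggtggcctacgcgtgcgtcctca
Prdx1: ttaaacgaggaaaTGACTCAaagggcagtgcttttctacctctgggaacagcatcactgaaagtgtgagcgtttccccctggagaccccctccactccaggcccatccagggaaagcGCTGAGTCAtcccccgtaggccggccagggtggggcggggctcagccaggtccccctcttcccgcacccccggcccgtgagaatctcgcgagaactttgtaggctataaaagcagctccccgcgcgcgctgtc
*Gstp1* held 1 AP-1 match, 74 to 68 bases before the start. *Prdx1* held 2, of which the one 131 to 125 bases before the start overlapped its antioxidant response element match on the other strand. Among the windows of the other members in the RefSeq table, which run from 250 bases before to 50 after the start, only *Sod1* had a match, to the antioxidant core, and *Prdx6* had no entry. Of all 32851 windows of the same length, 7.81% held the AP-1 element and 12.4% the antioxidant core, so these matches describe letters and not binding.

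The enzymes that remove superoxide differed between classes. *Sod2* was at 260 CPM (224 to 302; 178 UMIs) in control RPE and at 523 CPM (494 to 555; 1156 UMIs) in light damage RPE, a log2 ratio of 1.01 (0.78 to 1.24). In Müller glia it was at 70.1 CPM (30.3 to 138; 8 UMIs) and 476 CPM (401 to 560; 144 UMIs), with a log2 ratio of 2.76 (1.75 to 4.00). The intervals of the 2 libraries do not overlap in either class. The Müller glia of the 2 libraries were not alike, however. Leiden clustering placed them in separate clusters, 1 with 49 control droplets and 1 light damage droplet and 1 with 26 light damage and 0 control droplets, and the 8 Müller markers made up 1.89% of control and 0.828% of light damage UMIs. The part of this difference, and of that in depth, in the Müller ratios was not tested. Without the droplet with most *Sod2* UMIs in each library, the Müller log2 ratio was 3.55, but in the control that droplet held 4 of the 8 UMIs. In the 10 control and 24 light damage Müller glia under 1% rod markers the ratio was 2.68. Free RNA at the rod marker limit could give 52.7 of the 70.1 CPM in control Müller glia. With free RNA subtracted the ratio was 4.48. In rods and cones *Sod2* differed little, with log2 ratios of 0.08 (-0.02 to 0.18) in cytoplasm-rich rods, 0.12 (-0.07 to 0.32) in nucleus-rich rods and 0.13 (-0.25 to 0.51) in cones.

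The *Sod2* values rest largely on ambiguous UMIs, which the mapping could assign to neither spliced nor unspliced RNA. In RPE 122 of the 178 control and 943 of the 1156 light damage UMIs were ambiguous, and with spliced UMIs alone the log2 ratio was 0.24 in RPE, -0.77 in cytoplasm-rich rods, -0.48 in nucleus-rich rods and -0.61 in cones, while in Müller glia it was 3.50 on 1 and 30 UMIs. Of the 31-base words in the last 500 bases of *Sod2* transcripts, 26.9% also occur in other genes, 317 in all. The direction in both kinds of rods and in cones thus turned with the kind of UMI counted. In RPE the ratio stayed above 0 but was under 1.5-fold, on 56 control and 213 light damage spliced UMIs, and no interval was computed for it. Cytosolic *Sod1* was at 256 CPM (245 to 267) and 213 CPM (202 to 225) in cytoplasm-rich rods, at 103 CPM (87.7 to 121) and 126 CPM (120.0 to 133) in nucleus-rich rods, and at 484 CPM (433 to 539) and 450.1 CPM (423 to 479) in RPE. None of these *Sod1* differences reached 1.5-fold.

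*Gpx4*, the glutathione peroxidase that reduces lipid hydroperoxides within membranes, was highest in RPE, at 5474 CPM (5300 to 5652) in the control and 5956 CPM (5854 to 6058) after light damage. The log2 ratio there was 0.12 (0.07 to 0.17). In cytoplasm-rich rods 3069.6 CPM (3031 to 3109) stood against 2522 CPM (2484 to 2561), a log2 ratio of -0.28 (-0.31 to -0.25), and in nucleus-rich rods 1092 CPM (1039.7 to 1146) against 1098 CPM (1078 to 1117), a log2 ratio of 0.01 (-0.07 to 0.08). In cones the log2 ratio was -0.50 (-0.62 to -0.38). All these differences are under 1.5-fold, although the intervals exclude 0 in cytoplasm-rich rods, cones and RPE. The value in nucleus-rich rods depended on depth. In the shallowest of 4 depth groups *Gpx4* was at -1.12 (-1.35 to -0.88) and in the next at -0.75 (-0.93 to -0.56), but at 0.10 (-0.08 to 0.29) and 0.01 (-0.11 to 0.12) in the 2 deepest, and *Prdx1* was at -0.93 (-1.65 to -0.21) in the shallowest and between 0.08 and 0.25 in the others.

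*Prdx1* and *Prdx2*, cytosolic peroxiredoxins that use thioredoxin, were lower by less than 1.5-fold in light damage cytoplasm-rich rods. *Prdx1* was at 175 CPM (166 to 185) and 144 CPM (135 to 154), a log2 ratio of -0.28 (-0.40 to -0.16). *Prdx2* was at 429 CPM (415 to 444) and 327 CPM (314 to 341), a log2 ratio of -0.39 (-0.47 to -0.31). In RPE the 2 genes went apart, with log2 ratios of 0.22 (0.07 to 0.37) for *Prdx1* and -0.22 (-0.42 to -0.03) for *Prdx2*. The median gene here is the median ratio of genes with at least 50 UMIs in each of the 2 groups compared. In cytoplasm-rich rods of the light damage library it was 0.16 higher on the log2 scale. Relative to it *Gpx4*, *Prdx1*, *Prdx2* and *Sod1* lay at -0.44, -0.44, -0.55 and -0.42 there.

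*Prdx6*, a peroxiredoxin that uses glutathione and also has phospholipase activity, was at 771 CPM (619 to 950.3; 88 UMIs) in control Müller glia and at 344 CPM (281 to 416; 104 UMIs) in light damage ones, a log2 ratio of -1.17 (-1.59 to -0.74). In RPE its levels were 529.5 CPM (476 to 587) and 532 CPM (502 to 563), a log2 ratio of 0.01 (-0.16 to 0.18). Rods held little, 26.8 and 27.1 CPM in cytoplasm-rich and 48.3 and 46.8 CPM in nucleus-rich rods. *Prdx2* in Müller glia was at 280 CPM (192 to 396; 32 UMIs) and 159 CPM (117 to 210.3; 48 UMIs), a log2 ratio of -0.82 (-1.50 to -0.13).

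These Müller values need the shift of all genes beside them, since the median gene was 0.58 lower on the log2 scale after light damage. Relative to it *Prdx6* lay at -0.59, *Prdx2* at -0.25, *Gpx4* at 0.10, *Sod1* at 0.62, *Prdx1* at 0.92 and *Sod2* at 3.34. *Gpx4* thus changed sign with the scaling, *Prdx2* was then under 1.5-fold, and *Sod1* and *Prdx1* past it. With each droplet given equal weight *Prdx6* was at -0.32. Rod markers made up 1.77% of UMIs in control and 0.480% in light damage Müller glia. By these markers free RNA could give 718 of the 1078 CPM of *Gpx4* in control Müller glia. With free RNA subtracted, the log2 ratio of *Gpx4* was 0.23.

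**Figure D3:**
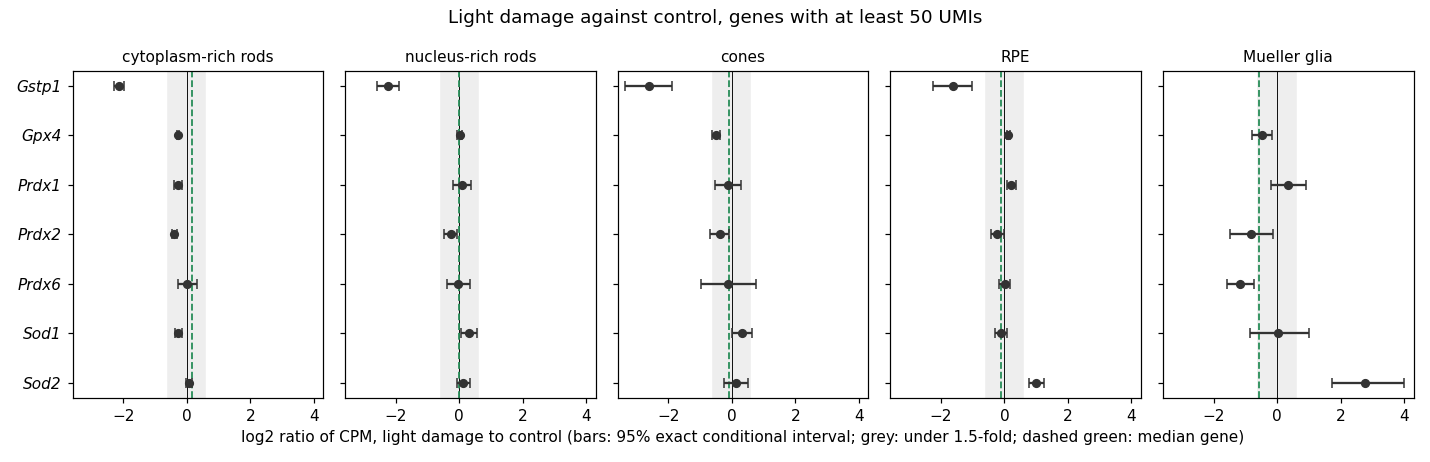
Log2 ratio of CPM, light damage to control, for each member with at least 50 UMIs in a class, with exact conditional 95% intervals (points and bars), the range under 1.5-fold in grey and the median gene as a dashed line. The median gene is that of genes with at least 50 UMIs in each library. *Gstp1* lies left of the grey band in rods, cones and RPE and has no point in Müller glia, and *Sod2* lies right of it in RPE and Müller glia.

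Counted by a fold of at least 1.5, 7 of the 10 members had 50 UMIs in rods, cones and RPE and 6 in Müller glia. The lower member in rods, cones and RPE was *Gstp1*, whose fall in rods chose the list. The rod counts are therefore a description, and no other member was past 1.5-fold in rods. In cytoplasm-rich rods 1 was lower and 0 higher, where 3.51% of all tested genes were lower and 14.3% higher. In nucleus-rich rods 1 was lower and 0 higher (all genes: 11.3% and 17.6%), in cones 1 and 0 (11.8% and 27.6%), in RPE 1 lower and 1 higher (13.9% and 19.6%), and in Müller glia 2 lower and 1 higher (24% and 36.2%). The median log2 ratio of the members was -0.28 in cytoplasm-rich rods, 0.01 in nucleus-rich rods, -0.13 in cones, 0.01 in RPE and -0.22 in Müller glia, beside 0.17, 0.04, 0.19, 0.03 and 0.15 over all tested genes. The mu-class transferase *Gstm1*, the omega-class *Gsto1* and the secreted peroxidase *Gpx3* were under the minimum in every class, with at most 27 UMIs per class and library, so no fold was read for them. The interval of *Gstm1* excluded 0 in nucleus-rich rods, at -2.90 (-5.02 to -0.78), but on 5 UMIs in each library.

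The members also followed the unspliced share of rods within each library. In nucleus-rich against cytoplasm-rich rods 5 of 7 were at least 1.5-fold lower and 1 higher in the control, where 14.3% of all tested genes were lower and 52.3% higher, and also 5 lower and 1 higher in the light damage library, where the shares were 10.6% and 56.4%. The log2 ratios in control and light damage were -1.89 (-2.17 to -1.61) and -2.00 (-2.26 to -1.74) for *Gstp1*, -1.53 and -1.42 for *Prdx2*, -1.49 and -1.20 for *Gpx4*, -1.31 and -0.75 for *Sod1*, and -1.08 and -0.73 for *Prdx1*. *Sod2* was lower by less than 1.5-fold, at -0.55 and -0.51, but past it relative to the median gene, at -1.18 and -0.995. *Prdx6* was the exception, at 0.85 (0.45 to 1.24) and 0.79 (0.54 to 1.04), but the median gene itself was 0.62 and 0.49 higher in nucleus-rich rods. Relative to it *Prdx6* lay at 0.23 and 0.31, and with unspliced UMIs counted its log2 ratios were -0.26 and -0.08.

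The rest of the chemistry was followed in 61 other genes of glutathione synthesis and use, thioredoxin, glutaredoxin and peroxide removal. In RPE 29 had at least 50 UMIs, of which 6 were at least 1.5-fold higher and 6 lower after light damage, beside 19.6% and 13.9% of all tested genes. The higher ones included *Gclc*, the catalytic subunit of the enzyme that limits glutathione synthesis, at 27.8 and 81.5 CPM with a log2 ratio of 1.55 (0.87 to 2.32). *Srxn1*, which repairs over-oxidised peroxiredoxins, had 1.46 (0.52 to 2.57), the thioredoxin reductase *Txnrd1* 1.02 (0.45 to 1.64) and catalase (*Cat*) 0.86 (0.58 to 1.14). The lower ones included *Mgst3*, a microsomal glutathione transferase, at -1.07 (-1.71 to -0.41), *Sesn3* at -0.96 (-1.17 to -0.74), the transferase *Gstt2* at -0.79 (-1.18 to -0.39) and glutathione reductase (*Gsr*) at -0.69 (-1.14 to -0.23). The median log2 ratio of the list was 0.11 in RPE, beside 0.03 over all genes.

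In Müller glia 8 list genes had 50 UMIs, 5 higher and 1 lower, where 36.2% and 24% of all tested genes were. *Slc7a11*, the cystine transporter that supplies glutathione synthesis, had 2 UMIs in the control and 484 after light damage, a ratio of 91.2 with a counting interval of 25.1 to 755. *Txnrd1* went from 4 to 141 UMIs, with 3.73 (2.34 to 5.63) on the log2 scale, and *Srxn1* 0 and 168 UMIs, at least 21.1-fold higher against 3 UMIs in the control. These light damage Müller glia were the deeper droplets given above, in a cluster apart from the control ones and with the lower Müller marker share, and the part of either in these ratios was not tested.

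In cytoplasm-rich rods 30 list genes had 50 UMIs, 2 higher and 3 lower (all genes: 14.3% and 3.51%), and in nucleus-rich rods 35, 2 higher and 5 lower (17.6% and 11.3%). Catalase went the other way in rods than in RPE, at -0.61 (-1.22 to -0.01) in cytoplasm-rich and -1.18 (-1.92 to -0.38) in nucleus-rich rods. *Glrx*, a glutaredoxin that reduces protein-glutathione disulfides, was at -0.68 and -0.93, and *Msra*, which reduces oxidised methionine, at -0.85 and -0.98. Higher in cytoplasm-rich rods were *Sesn2*, a stress-responsive sestrin, at 0.98 (0.19 to 1.79) and *Gstcd* at 0.66 (0.27 to 1.06). In cones 11 list genes had 50 UMIs, 2 higher (*Gclm* and *Mgst3*) and 2 lower (*Glrx2* and *Txn1*), beside 27.6% and 11.8% of all tested genes.

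**Figure D4:**
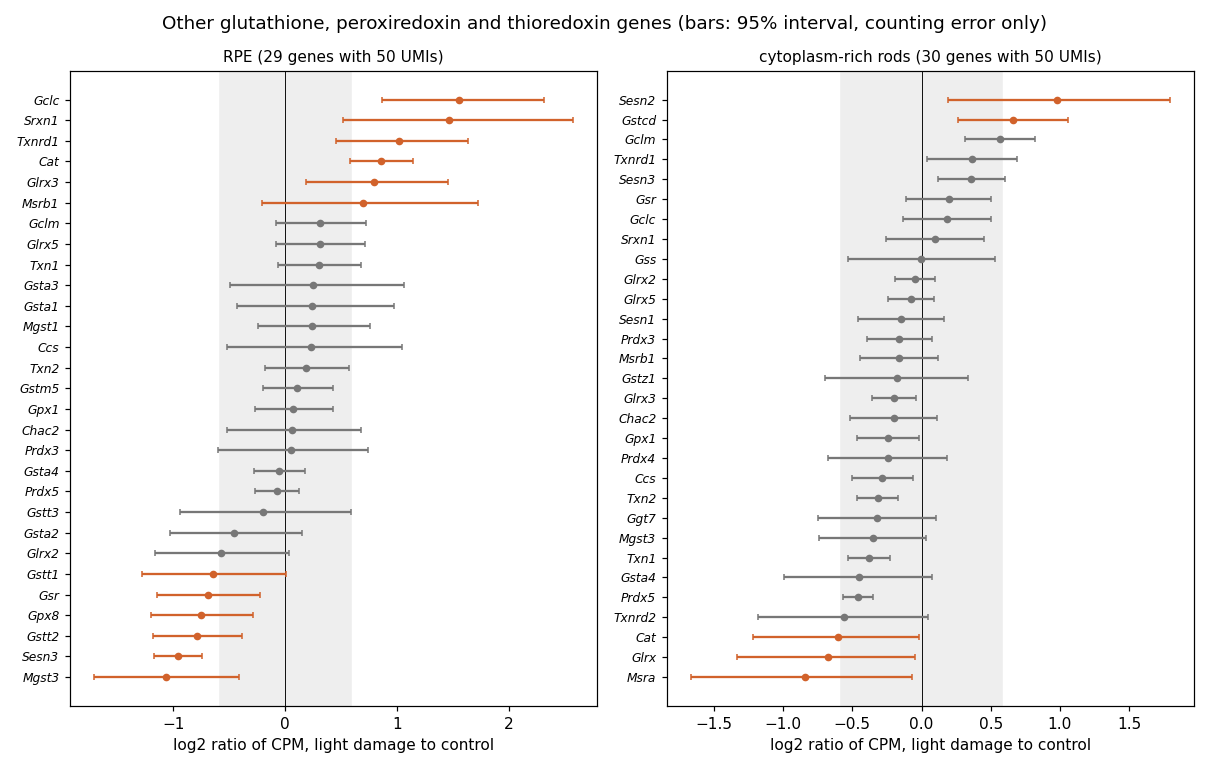
Log2 ratio of CPM, light damage to control, of the other glutathione, peroxiredoxin and thioredoxin genes with at least 50 UMIs in RPE (left, 29 genes) and cytoplasm-rich rods (right, 30 genes), with exact conditional 95% intervals. Orange points are at least 1.5-fold higher or lower, 12 in RPE and 5 in cytoplasm-rich rods, and grey points are under it.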

How the data were processed

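Per the labels and methods, the authors mapped reads with Salmon 1.10.1 and alevin-fry 0.8.1 to the mm10 reference of Cell Ranger and deposited counts of UMIs for each gene and barcode as spliced, unspliced and ambiguous blocks (3 in all), without normalization or removal of empty droplets. Gene names came from GENCODE (32235 of 32285 identifiers).

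Kept droplets lay above the inflection of the ranked barcodes (1464 control, 1614 light damage UMIs) and under 10% mitochondrial UMIs. Scrublet scores removed 0.8% per 1000 droplets (114 and 276), since its automatic call gave 1 and 0. Droplets were named by marker UMIs, with at least 3 markers and limits of 0.3 to 2% set after the shares were seen. *Gnb3* and *Rlbp1* were dropped from the cone and Müller lists after their values were seen, and no member enters the naming. Sums over each class and library were used throughout. Intervals were exact Poisson for CPM, while shares had exact binomial and log2 ratios exact conditional binomial ones. Members and lists were chosen with earlier results of these data known. All 10 members are named, and of the 61 other genes those at least 1.5-fold different with 50 UMIs could be. Which of these are named was chosen after their values were seen. Steps were tested on simulated counts. The scripts used scanpy 1.11.5, scipy 1.17.1 and numpy 2.4.6 under Python 3.11.15. One of the genes most alike to *Gstp1* is not reported here.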

Additional observations from a re-analysis of the deposited data

Results flagged for a closer look

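Of the members with at least 50 UMIs, 3 had intervals on opposite sides of 0 in different classes for light damage against control, all under 1.5-fold, and the difference between classes was not tested. The log2 ratio of *Prdx1* was 0.22 in RPE and -0.28 in cytoplasm-rich rods. That of *Gpx4* was 0.12 in RPE, -0.28 in cytoplasm-rich rods, -0.50 in cones and -0.48 in Müller glia. With free RNA subtracted it was 0.23 in Müller glia. In control cones free RNA at the rod marker limit could give 3166 CPM of *Gpx4*, above the 2065 CPM measured. The part of free RNA in the cone value was not tested. That of *Sod1* was 0.29 in nucleus-rich and -0.26 in cytoplasm-rich rods. In nucleus-rich rods divided by depth, from shallow to deep, *Sod1* was at -0.10, -0.25, 0.52 and 0.15. The interval of each of these depth groups includes 0, so the direction of *Sod1* there did not hold within depth. Outside the classes compared, 1 unnamed droplet of the control library held 3394 of the 3412 *Gsto1* UMIs of its kept droplets, beside 48 in the light damage library.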

How the results depend on the processing

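Each member's ratio was recomputed under 12 planned settings and 4 added after seeing the data, and the counts under 13 and 3. Of 700 member values 584 stayed within the main interval, 114 left it, and 2 that had been past 1.5-fold changed sign: *Prdx6* in nucleus-rich against cytoplasm-rich rods, at -0.26 (control) and -0.084 (light damage) with unspliced UMIs counted. A further 53 values, whose main ratio was under 1.5-fold, also changed sign. Among them were *Sod2* in rods and cones with spliced UMIs alone and *Gpx4* in nucleus-rich rods at low depth. Others were *Gpx4* in Müller glia when centred or with free RNA subtracted (0.23), and *Gpx4* in cones with under 5% rod markers (0.18). *Gstp1* was lower under every setting run in cytoplasm-rich rods (-2.47 to -2.06), nucleus-rich rods (-3.50 to -2.00), cones (-3.07 to -2.43) and RPE (-1.95 to -1.27). The rod ranges reuse the libraries in which the fall of *Gstp1* chose the list, so they are a description. In cones no setting took out free RNA at the rod marker limit, which in the control lies above the *Gstp1* level measured. The cone range therefore cannot show whether the fall there holds without rod RNA. Of 101 counts of members past 1.5-fold 90 stayed within 1.5 times the main count. In cones it was 2 with unspliced UMIs (*Gpx4* added), with spliced UMIs alone (*Sod2*), with Leiden clusters (*Gsto1*), with the mean of single droplets (*Prdx2*), without a minimum of UMIs per gene (*Gstm1*), and in cones with under 5% rod markers, where *Gstp1* was under 50 UMIs (*Prdx2* and *Sod2*). With spliced UMIs alone it was 2 in cytoplasm-rich rods and 1 in RPE, and without a minimum 2 in cytoplasm-rich rods, 3 in nucleus-rich rods and 5 in Müller glia. Without a minimum, a gene with 0 UMIs in 1 group had its counts under 3 raised to 3. *Gstm1* in cones (0 light damage and 1 control UMI) and *Gsto1* in Müller glia (1 and 0) were thus past 1.5-fold through the class totals alone. The cause of the other moves was not tested. Cones named by markers held 0 *Gsto1* UMIs in either library, so its count with Leiden clusters rests on droplets that the markers did not name as cones. Of its 3412 UMIs in kept control droplets, 3394 lay in the 1 unnamed droplet given above, while all kept light damage droplets held 48. The Leiden cluster of that droplet was not looked up, and it may be counted as a cone under that setting. No paired analysis was possible because each group has 1 library, and no library could be left out. Depth limits *Gstm1*, *Gsto1* and *Gpx3* in every class and all genes in control Müller glia.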

Other observations

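*Gsto1*, the omega-class glutathione transferase, sat almost wholly in a single control droplet. That droplet had 49655 spliced and ambiguous UMIs and 0.0403% rod markers. It also held 99.9% of the kept control UMIs of *Prss22*, 99.3% of *Pglyrp1*, 98.6% of *S100a6* and 100% of *Asprv1*, genes chosen after their values were seen. In 14 other control droplets *Gsto1* was detected with the remaining UMIs. With nearly all of its kept control UMIs in this droplet, a comparison of *Gsto1* over all kept droplets would follow it. In free RNA *Gsto1* was at 39.7 CPM (29.5 to 52.3) in the control and 4.70 CPM (2.43 to 8.21) after light damage. Whether that difference stems from this droplet was not tested. A like concentration at lower counts was seen for *Gpx3*, with 6 of 6 control UMIs of cytoplasm-rich rods in 1 droplet, and for *Gstm1*, with 5 of 5.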
